A study of Mus musculus with 14 samples.

Results

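The transcription factors described here are Irf2, Irf3, Irf4, Irf5 and Irf8 of the interferon regulatory factor (IRF) family and Batf, Batf2 and Batf3 of the BATF family. They are 8 of the 24982 genes in the count table and were chosen by name, with Irf1, Irf7 and Irf9 left out. The choice was made with earlier results of these data known. Messenger RNA was measured in macrophages sorted from the lamina propria of colon and cecum of C57BL/6 mice at 5 weeks of age, by the surface phenotype CD45+ Ly6G- CD103- CD64+ CD11b+ MHCII+ Ly6C-. All mice carried Cdcs1, a locus that raises susceptibility to colitis. WT mice carried Cdcs1 alone (5 libraries), IL10RAKO mice also lacked the interleukin-10 receptor alpha chain (Cdcs1, Il10ra -/-, 4 libraries), DKO mice lacked in addition the chemokine receptor that draws monocytes into tissue (Cdcs1, Il10ra -/-, Ccr2 -/-, 4 libraries), and a single CCR2KO mouse was Cdcs1, Ccr2 -/-. The null alleles are carried by every cell of the mouse, not by macrophages alone. Tests used 4 mice per genotype, since WT mouse 4 is absent from the study's own table of normalised values; that mouse and the CCR2KO mouse are given as values only unless stated.

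IRF proteins share a DNA-binding domain that recognises GAAA repeats. IRF3 and IRF5 are latent in the cytoplasm until kinases downstream of nucleic acid sensors and Toll-like receptors phosphorylate them, whereas IRF4 and IRF8 bind poorly alone and work on composite sites with the ETS factors PU.1 and SPI-B or with BATF and JUN proteins. BATF proteins are small leucine zipper factors that pair with JUN. In the gut, IRF8 is needed for monocytes and, with BATF3, for the cDC1 lineage of dendritic cells, IRF5 is tied to inflammatory macrophages, and BATF2 is an interferon-gamma-induced factor of activated macrophages.

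The 12 libraries tested held 13085287 to 21216468 counted reads, and 3 reads corresponded to 0.141 to 0.229 CPM, the unit of level used here (reads scaled to a common library size with TMM factors). Il10ra was at 217.0 to 379.6 CPM in the 4 WT mice, at 4.89 to 11.2 in IL10RAKO and at 3.41 to 7.59 in DKO. Ccr2 was at 3.92 to 6.68 CPM in DKO and 4.295 in CCR2KO, against 361.0 to 702.1 in WT and IL10RAKO, so both targeted genes followed the labels. The macrophage markers Csf1r, Cd68, Adgre1, Mertk, Fcgr1, C1qa, C1qb, C1qc and Cx3cr1 summed to 8929 to 12017 CPM in WT, 7051 to 12466 in the IL10RAKO mice and 6664 to 11029 in the DKO mice. Of these 9 markers, 1 rose in each mutant genotype and 2 fell in DKO. Adgre1 was at 641.2 to 885.4 CPM in WT and 228.1 to 519.0 in DKO. Cx3cr1 was at 318.6 to 431.2 CPM in WT and 134.8 to 216.5 in DKO. Markers of other cells moved with genotype: the sum of 4 monocyte markers was 120.0 to 182.3 CPM in WT, 366.8 to 1045 in the IL10RAKO mice and 430.1 to 698.0 in the DKO mice, and all 6 fibroblast markers fell in both mutant genotypes. Neutrophil markers (5 genes) reached at most 117.3 CPM in WT, against 294.7 in IL10RAKO and 258.8 in DKO. Most of that sum was Csf3r, at 73.4 to 117.2, 132.1 to 229.7 and 131.2 to 224.2 CPM in the same order. S100a8 never exceeded 42.8 CPM and S100a9 never 40.8, though all 4 neutrophil markers tested rose in each mutant genotype. Mast cell markers (4 genes) reached at most 34.9, against 225.1 and 210.0. That mast cell sum was almost all Kit, which is also listed below as a dendritic cell marker, and Hdc. Cpa3 never exceeded 2.11 CPM and Fcer1a never 1.29 CPM in the 12 mice, and both were highest in a WT mouse. The 5 epithelial markers did not pass in any comparison; they summed to 43.4 to 938.1 CPM in WT, 36.6 to 161.8 in IL10RAKO mice and 127.2 to 180.8 in DKO mice, which overlap. In bulk RNA, a change in the share of a cell type and a change in RNA per cell cannot be told apart. The part of these other cells in the results below was not tested unless a value is given.

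Against WT, the same members stood out in both genotypes that lack Il10ra. Batf2 rose about 16.0-fold in IL10RAKO and 15.0-fold in DKO, Irf8 rose 1.75-fold and 1.83-fold, and Irf5 rose 1.57-fold and 1.52-fold. Batf3 fell, by 0.66 on the log2 scale in IL10RAKO and by 1.42 in DKO. Irf2, Irf3, Irf4 and Batf did not pass the test in either comparison. Thus 4 of the 8 members passed in IL10RAKO against WT (3 higher, 1 lower), where 15.8% of the 13136 genes tested passed (8.7% higher, 7.1% lower), and 4 of 8 passed in DKO against WT (3 higher, 1 lower), where 18.5% passed (9.23% higher, 9.22% lower). The median log2 fold change of the 8 was 0.09 and 0.13, against -0.07 and -0.06 over all genes tested. Both comparisons use the same 4 WT mice. The test was edgeR's quasi-likelihood test on raw counts with Benjamini-Hochberg adjustment over all 13136 genes, and a gene passed at an adjusted p under 0.05.

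**Figure D1:**
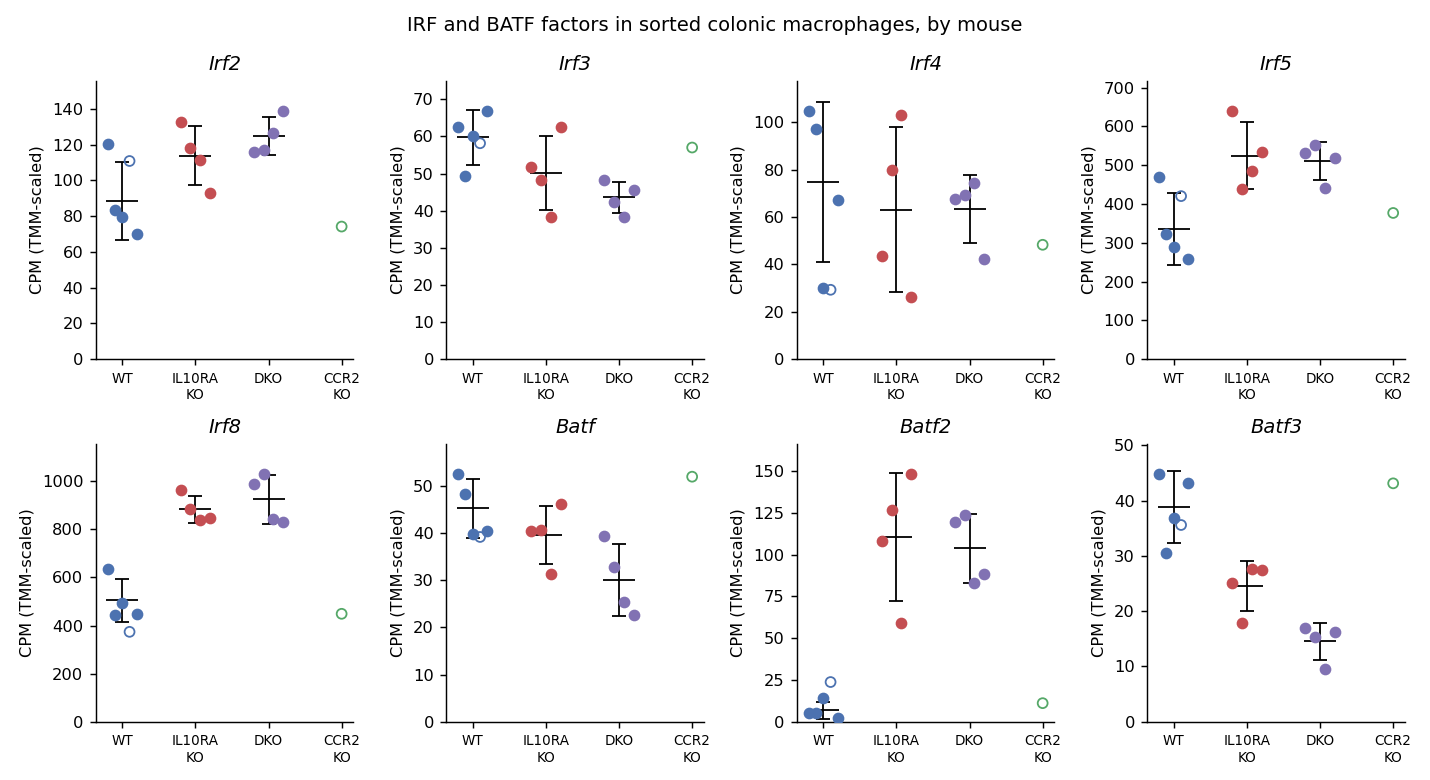
TMM-scaled CPM of the 8 factors (y axis, from 0) in each mouse, by genotype (x axis). Filled points are the mice tested (n = 4 per genotype), open points are WT mouse 4 and the CCR2KO mouse, and the bar and whiskers are the mean ± SD of the filled points; Irf8 and Batf2 lie higher and Batf3 lower in every IL10RAKO and DKO mouse than in any of the 4 WT mice.

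Irf8 (ENSMUSG00000041515, chromosome 8, 120736358 to 120756694, plus strand, GRCm38) was the most abundant member in reads. It was at 635.6, 444.7, 492.2 and 446.8 CPM in WT mice 1, 2, 3 and 5. In IL10RAKO mice 1 to 4 it was at 962.9, 885.2, 837.2 and 848.9 CPM, and in DKO mice 1 to 4 at 990.6, 1032.1, 844.9 and 830.6. Every mutant mouse lay above every WT mouse. The log2 fold change was 0.81 in IL10RAKO (SE 0.152, 95% confidence interval 0.48 to 1.13, edgeR adjusted p = 0.00219) and 0.87 in DKO (SE 0.152, interval 0.55 to 1.20, edgeR adjusted p = 0.00109). The spread among IL10RAKO mice was the narrowest of any member and genotype, with a coefficient of variation of 6.42%. WT mouse 4, at 373.8 CPM, and the CCR2KO mouse, at 448.8, lay at the WT end. The call held in all 23 alternative settings in both comparisons.

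The window upstream of the Irf8 start is shown because the gene rose and its window holds a pair of gamma-activated sequences (GAS, TTCNNNGAA), the motif bound by STAT dimers; that of Irf2 is shown because it was the only member with a core interferon-stimulated response element (ISRE, GAAANNGAAA), the motif that IRF proteins recognise. Both run 5′ to 3′ on the plus strand over the 250 bases before the RefSeq start (GRCm38.p6), Irf8 at chr8:120736108-120736357 and Irf2 at chr8:46739495-46739744, with motif matches in capitals.
Irf8: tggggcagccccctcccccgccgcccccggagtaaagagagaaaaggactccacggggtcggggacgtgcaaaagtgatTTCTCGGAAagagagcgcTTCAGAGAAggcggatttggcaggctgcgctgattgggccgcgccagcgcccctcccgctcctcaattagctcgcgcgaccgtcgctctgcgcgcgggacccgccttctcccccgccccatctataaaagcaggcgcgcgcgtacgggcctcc
Irf2: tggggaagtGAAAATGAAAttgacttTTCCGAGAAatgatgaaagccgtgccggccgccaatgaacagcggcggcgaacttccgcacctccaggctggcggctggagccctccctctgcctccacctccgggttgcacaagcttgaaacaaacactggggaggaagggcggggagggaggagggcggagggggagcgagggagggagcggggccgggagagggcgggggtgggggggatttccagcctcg
RefSeq promoters (250 bases before to 50 after the start) were matched for 7 of the 8 members, and the entry for Batf2 is missing. In Irf8 the matches TTCTCGGAA and TTCAGAGAA begin 171 and 153 bases before the start, and a further Irf8 promoter holds none. In Irf2 the ISRE core GAAAATGAAA begins 241 bases and the GAS TTCCGAGAA 224 bases before the start. Batf3 holds the GAS TTCCACGAA, 239 bases before its RefSeq start. No member's window holds the AP-1 site TGANTCA. On both strands, 3.44% of 32851 promoters hold the ISRE core, 8.3% the GAS and 7.81% the AP-1 site; the motifs do not overlap each other in these windows. The matches are descriptions of letters and not measured binding.

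Irf5 (chromosome 6, 29526625 to 29541871, plus strand) was at 468.9, 323.0, 288.1 and 259.0 CPM in WT mice 1, 2, 3 and 5. It was at 640.4, 438.8, 484.3 and 534.7 CPM in the IL10RAKO mice and at 530.9, 551.0, 440.6 and 519.4 in the DKO mice. WT mouse 1 alone reached into the range of the mutants, so that the mutant mouse was higher in 15 of 16 pairs in each comparison. The log2 fold change was 0.65 in IL10RAKO (SE 0.190, edgeR adjusted p = 0.0323) and 0.61 in DKO (SE 0.190, edgeR adjusted p = 0.0382). Without WT mouse 1 it was 0.86 and 0.82. The call was lost in IL10RAKO when WT mouse 2, 3 or 5 or IL10RAKO mouse 1 or 4 was left out (adjusted p 0.0702 to 0.103) and in DKO when WT mouse 2, 3 or 5 or DKO mouse 1, 2 or 4 was left out (adjusted p 0.0771 to 0.111), with log2 fold changes of 0.51 to 0.65. In both comparisons the call was also lost on library totals without TMM and with all 5 WT libraries. In IL10RAKO it was lost as well when only the 2 genotypes were fitted. Over the alternatives the log2 fold change went down to 0.34 in IL10RAKO and 0.36 in DKO, and the adjusted p up to 0.174 and 0.155. The call held in 15 of 23 alternatives in each comparison.

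Irf2 (chromosome 8, 46739732 to 46847458, plus strand), a factor known both to repress interferon-stimulated genes and to drive the pore-forming gene Gsdmd, was at 120.3, 83.5, 79.7 and 70.2 CPM in the WT mice, 132.9, 118.4, 111.2 and 93.2 in IL10RAKO and 116.1, 117.3, 126.6 and 139.0 in DKO. WT mouse 1 again overlapped the mutants. The log2 fold change was 0.37 in IL10RAKO (edgeR adjusted p = 0.189) and 0.50 in DKO (95% interval 0.12 to 0.88, edgeR adjusted p = 0.0682). Leaving out WT mouse 1 brought both past the threshold, at 0.56 (adjusted p = 0.0264) and 0.69 (adjusted p = 0.00820), while over all 23 alternatives the adjusted p ran from 0.0264 to 0.820 in IL10RAKO and from 0.00820 to 0.333 in DKO.

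Irf3 (chromosome 7, 44997648 to 45002848, plus strand), the factor that induces interferon beta, was at 62.5, 49.4, 60.2 and 66.9 CPM in WT, 51.8, 48.1, 38.2 and 62.5 in IL10RAKO and 48.1, 42.4, 38.4 and 45.6 in DKO. Every DKO mouse lay below every WT mouse, the nearest pair being DKO mouse 1 and WT mouse 2, but the log2 difference of -0.45 (SE 0.172) had an edgeR adjusted p of 0.0829. In IL10RAKO it was -0.25 (adjusted p = 0.357). Without TMM, on library totals, it passed in both comparisons (-0.58, adjusted p = 0.0193, and -0.71, adjusted p = 0.00577), a scaling that moved the median of all genes to -0.38 and -0.32; over the alternatives the adjusted p reached 0.607 and 0.196.

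Irf4 (chromosome 13, 30749226 to 30766976, plus strand), a factor of alternatively activated macrophages, dendritic cells and plasma cells, varied more within genotypes than between them. It was at 104.8, 97.0, 29.9 and 67.3 CPM in WT, 43.4, 79.9, 103.1 and 26.1 in IL10RAKO and 67.7, 69.3, 74.5 and 42.1 in DKO. The highest mouse was 3.50 times the lowest in WT and 3.95 times in IL10RAKO. The log2 differences from WT were -0.24 in each genotype, with a standard error of 0.408 and 95% intervals of -1.12 to 0.63 and -1.11 to 0.64 (adjusted p = 0.741 and 0.739, edgeR). Summed markers of B and plasma cells (Ms4a1, Cd79a, Cd79b, Jchain, Pax5) were at 1564, 1243, 394.4 and 731.4 CPM in the same WT mice and at 649.98, 681.9, 874.1 and 334.7 in the IL10RAKO mice. The 4 mice of each of these genotypes ranked in the same order by Irf4 and by that sum. In DKO the sums were 1624, 461.2, 682.8 and 391.3, and mouse 4 was lowest in both. The other DKO mice did not keep the order, with the highest sum in mouse 1 and the highest Irf4 in mouse 3. Conventional dendritic cell markers (Flt3, Zbtb46, Dpp4, Ccr7, Kit) gave the same order as Irf4 in WT but not in IL10RAKO. In DKO, mouse 4 was again lowest in both, but the order of the other mice differed. Their sum was 269.0 to 1122 CPM in WT, 1621 to 2032 in IL10RAKO mice and 1189 to 1972 in DKO mice. Of the 5, 3 rose in each mutant genotype. Most of the sum was Ccr7, at 194.4 to 921.2, 1288 to 1760 and 973.5 to 1706 CPM. Flt3 (11.4 to 73.4, 24.7 to 80.4 and 13.6 to 45.1) and Zbtb46 (5.22 to 26.1, 14.1 to 37.5 and 14.9 to 28.4) overlapped WT in both mutants. The share of Irf4 reads that came from such cells was not tested.

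**Figure D2:**
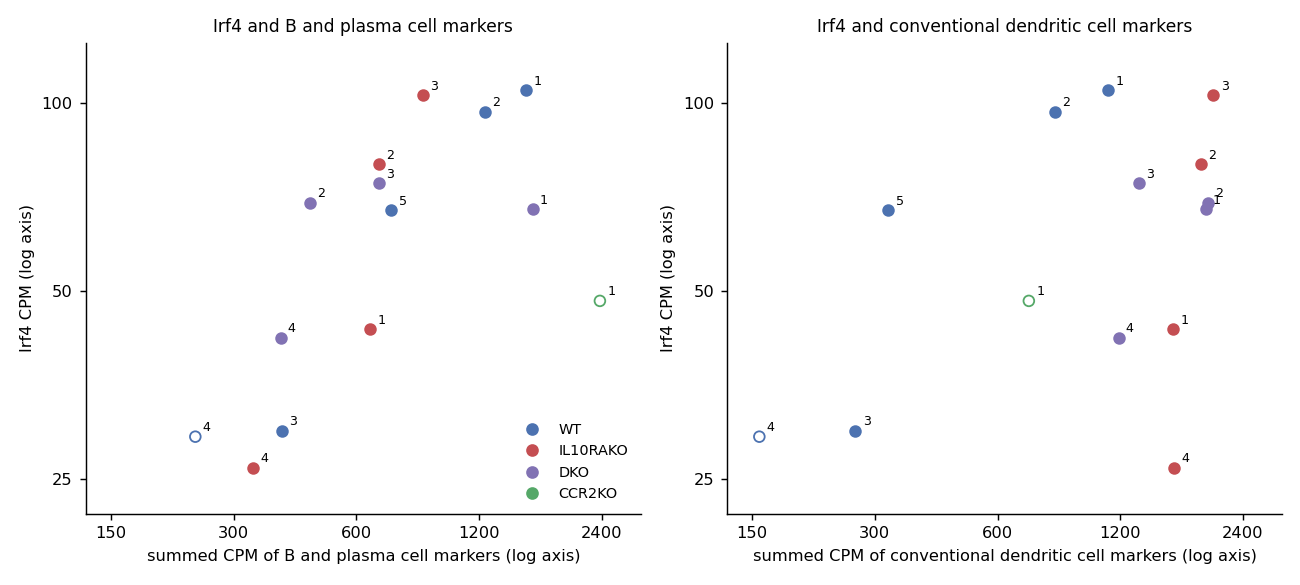
Irf4 CPM (y axis, log scale) against the summed CPM of B and plasma cell markers (left) and conventional dendritic cell markers (right; x axes, log scale), 1 point per mouse with its number, coloured by genotype and open for the mice outside the tests. Within WT and within IL10RAKO, but not within DKO, the points climb together in the left panel. The CCR2KO mouse lies at 2376 CPM of B and plasma cell markers with 48.2 CPM of Irf4.

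Among the BATF genes, Batf2 (chromosome 19, 6140983 to 6172476, plus strand) changed most. WT mice 1, 2, 3 and 5 held 5.3, 5.5, 14.2 and 2.3 CPM, from 34 to 343 reads. The IL10RAKO mice held 107.9, 126.6, 59.0 and 148.5 CPM and the DKO mice 119.4, 123.7, 82.9 and 88.6. The lowest mutant, IL10RAKO mouse 3, was still far above the highest of these WT mice, mouse 3. The log2 fold change was 4.00 in IL10RAKO (SE 0.456, 16.0-fold, 95% interval 8.12- to 31.5-fold, edgeR adjusted p = 4.38e-05) and 3.91 in DKO (SE 0.455, 15.0-fold, interval 7.64- to 29.5-fold, edgeR adjusted p = 4.06e-05), and it passed in all 23 alternatives of each. The size rests in part on which WT mice are used. Without WT mouse 3 it was 25.2-fold (log2 4.65) in IL10RAKO and 23.6-fold (4.56) in DKO. With all 5 WT libraries the log2 fold change in IL10RAKO was 3.44. Over the 23 alternatives it ran from 3.44 to 4.65 in IL10RAKO and from 3.35 to 4.56 in DKO. WT mouse 4 was at 23.7 CPM and the CCR2KO mouse at 11.1.

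Batf3 (chromosome 1, 191097847 to 191108945, plus strand) was at 44.9, 30.6, 36.9 and 43.2 CPM in WT, 25.1, 17.9, 27.7 and 27.5 in IL10RAKO and 17.0, 15.3, 9.6 and 16.3 in DKO. The genotypes did not overlap at all: each IL10RAKO mouse lay below each WT mouse, and each DKO mouse below each IL10RAKO mouse. Against WT the log2 fold change was -1.42 in DKO (SE 0.217, edgeR adjusted p = 0.000410, 2.67-fold lower), which passed in all 23 alternatives. In IL10RAKO it was -0.66 (SE 0.213, edgeR adjusted p = 0.0482), a call that stood in 9 of 23 alternatives (adjusted p 0.00514 to 0.138). Among the 12 mice left out in turn it was kept only without WT mouse 2 or DKO mouse 3; without WT mouse 1, 3 or 5, any of the IL10RAKO mice, or DKO mouse 1, 2 or 4 the adjusted p was 0.0527 to 0.138 and the log2 fold change -0.73 to -0.53. The cDC1 markers Xcr1, Clec9a, Cadm1, Itgae and Wdfy4 summed to 118.7 to 154.8 CPM in WT, 123.1 to 178.2 in the IL10RAKO mice and 128.5 to 179.3 in the DKO mice; 2 of the 5 rose in IL10RAKO, 1 rose in DKO and none fell, with Xcr1 at most 18.3 CPM and Clec9a at most 9.34. Plasmacytoid dendritic cell markers, by contrast, summed to 126.6 to 180.9 CPM in WT. The sum was 60.2 to 94.3 in the IL10RAKO mice and 49.6 to 88.9 in the DKO mice, with 3 of 5 lower in each. Tcf4 made up most of it, with 104.0 to 119.7 CPM in the WT mice. Siglech was at 16.0 to 27.8 CPM in those mice and never above 2.78 in a mutant. Ccr9 went the other way without passing, reaching 8.23 CPM in DKO against at most 3.17 in WT. Whether these cells became fewer was not tested.

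Batf (chromosome 12, 85686669 to 85709087, plus strand), the family member best known in T and B cells, was at 52.7, 48.3, 39.8 and 40.4 CPM in WT, 40.4, 40.6, 31.4 and 46.2 in IL10RAKO and 39.4, 32.9, 25.4 and 22.6 in DKO. The DKO mice lay below the WT mice, narrowly for DKO mouse 1. The log2 difference of -0.59 in DKO (SE 0.198, edgeR adjusted p = 0.0519) missed the threshold, and in IL10RAKO it was -0.19 (adjusted p = 0.566). Batf passed in DKO in 7 of 23 alternatives, among them the fit without DKO mouse 1 (-0.74, adjusted p = 0.0228), with an adjusted p of 0.00560 to 0.156 over all of them. T and NK cell markers summed to 42.6 to 106.6 CPM in WT and 39.6 to 130.6 in DKO. Counting all members whose genotypes did not overlap gave 3 of 8 in IL10RAKO against WT, where 18.2% of all genes tested did not overlap, and 5 of 8 in DKO against WT, where 22.2% did not.

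**Figure D3:**
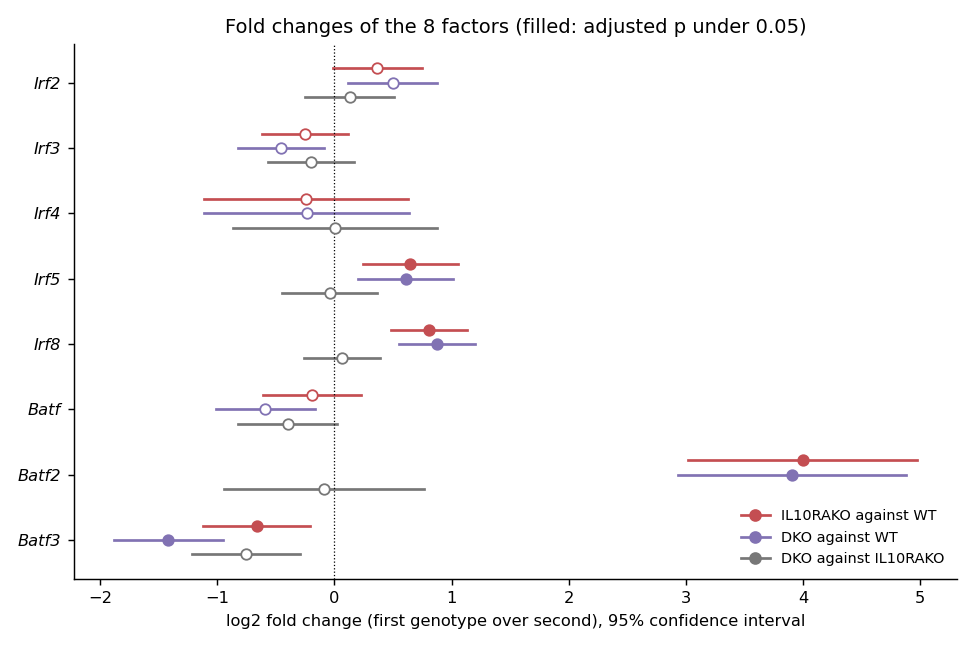
Log2 fold change (x axis) of each factor in the 3 comparisons, with 95% confidence intervals from the edgeR fit; filled points passed at an adjusted p under 0.05. Batf2 stands near 4 against WT in both mutants, and the grey intervals of DKO against IL10RAKO include 0 for every factor except Batf3.

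The comparison of DKO with IL10RAKO asked whether loss of Ccr2 altered these factors in mature macrophages that already lacked Il10ra. No member passed, with an edgeR adjusted p of 0.99992 for each, against 0.0457% of the 13136 genes (6 genes); DESeq2 and edgeR's exact test, which called 24 and 22 genes, called no member either. At an unadjusted p under 0.05 there was 1 member, Batf3, among 388 genes (2.95%). Batf3 was the only member whose mice did not overlap, where 2.41% of all genes did not. Its log2 difference was -0.75 (SE 0.216, 95% interval -1.21 to -0.29, unadjusted p = 0.00349), the 41st smallest p of all genes tested. The exact two-sided Mann-Whitney test on log2(CPM + 1) gave p = 0.0286 for it, the smallest that 4 mice against 4 allow, and on library totals without TMM p = 0.0571. For the other 7 members that exact test gave p = 0.114 (Batf) to 1 (Irf5).

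The intervals of the other members show what these mice could still hide. Irf8 differed between DKO and IL10RAKO by 0.07 on the log2 scale (95% interval -0.26 to 0.39) and Irf5 by -0.04 (-0.44 to 0.37). For Batf2 the difference was -0.09 (-0.95 to 0.76), with IL10RAKO mouse 3 the lowest and IL10RAKO mouse 4 the highest of the 8 mice. The Batf difference was -0.40 (-0.82 to 0.02), with the DKO mouse higher in 2 of 16 pairs. Irf2, Irf3 and Irf4 differed by 0.13, -0.20 and 0.0047 on the log2 scale, the last with an interval of -0.87 to 0.88. A p that misses the threshold does not show that the genotypes were alike.

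Levels can be compared between genes only per length, so CPM per kilobase of exon was used. In WT, Irf5 ranked highest (115.2 ± 32.1 CPM per kb, mean ± SD, n = 4), followed by Irf8 (71.6 ± 12.7), Batf (32.2 ± 4.45), Batf3 (24.4 ± 4.09), Irf3 (17.4 ± 2.16), Irf4 (15.2 ± 6.93), Irf2 (12.0 ± 2.97) and Batf2 (2.70 ± 2.04). The ranges of Irf5 and Irf8 touched in WT, those of Batf3, Irf3, Irf4 and Irf2 formed an overlapping run, and Batf2 stood apart below. In IL10RAKO, Irf5 (180.6 ± 29.8) and Irf8 (125.2 ± 8.04) kept the first places and no longer overlapped. Batf2 moved from rank 8 to rank 3 (43.8 ± 15.1). Its range overlapped that of Batf (28.2 ± 4.36), although Batf2 was the higher within each IL10RAKO mouse, narrowly in mouse 3 (23.4 against 22.3). In DKO, Batf2 (41.1 ± 8.27) again lay above Batf (21.4 ± 5.38) in every mouse, here without overlap of their ranges, and Batf3 (9.10 ± 2.10) had the lowest mean. The range of Batf3 overlapped that of Irf4, which was below it in DKO mouse 4 (8.59 against 10.2). In IL10RAKO the ranges of Irf2, Batf3, Irf3 and Irf4 all overlapped.

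Within the BATF family, the leading transcript was Batf in WT and Batf2 in the mutants. Batf2 supplied 4.62% ± 3.64 of the summed Batf, Batf2 and Batf3 CPM per kb in WT, 48.9% ± 8.37 in IL10RAKO and 57.5% ± 1.96 in DKO (mean ± SD, n = 4). Batf supplied 54.3% ± 5.48, 32.6% ± 2.19 and 29.7% ± 2.95 in the same order, and Batf3 supplied 41.0% ± 5.46, 18.4% ± 6.45 and 12.8% ± 2.63. The ratio of Batf2 to Batf3 per kb, which needs no library scaling, was 0.0332 to 0.244 in the 4 WT mice, 1.35 to 4.47 in the IL10RAKO mice and 3.45 to 5.45 in the DKO mice. It was 0.422 in WT mouse 4 and 0.163 in the CCR2KO mouse, so Batf2 was below Batf3 in every mouse with intact Il10ra. The ratio of Irf8 to Batf3, the pair required for cDC1, was 2.34 to 3.29 in WT, 6.85 to 11.2 in the IL10RAKO mice and 11.6 to 19.9 in the DKO mice. These shares and ratios were chosen after the values were seen and carry no test. Among the IRF members, Irf5 supplied 49.4%, 51.6% and 50.3% of the summed CPM per kb in WT, IL10RAKO and DKO, while Irf8 supplied 31.2%, 36.03% and 37.5%. The IRF sum itself was 195.2 to 307.3 CPM per kb in WT, 322.8 to 398.8 in the IL10RAKO mice and 314.9 to 378.3 in the DKO mice.

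**Figure D4:**
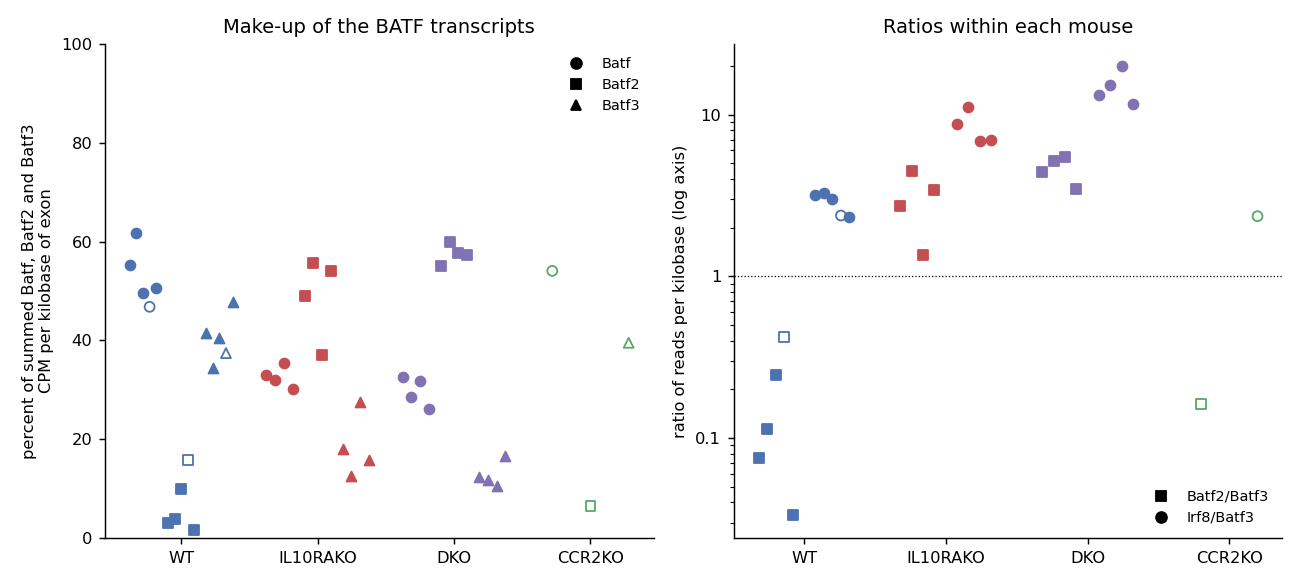
Left, the percentage of summed Batf, Batf2 and Batf3 CPM per kilobase that each gene supplied (y axis) in each mouse, by genotype (x axis). Right, the ratios of Batf2 to Batf3 and of Irf8 to Batf3 per kilobase (y axis, log scale); open points are the mice outside the tests, and Batf2 exceeds Batf3 in every mouse that lacks Il10ra and in no other.

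Reads from stretches shared with a neighbour on the opposite strand cannot be assigned by strand, since the reagents used do not mark it. How the counting treated such reads is not stated. Exons of Irf3 share 88 bases with Bcl2l12, those of Irf5 share 411 with Tnpo3, and those of Batf2 share 51 with Arl2. These neighbours had log2 fold changes against WT of -0.03 and 0.04 (Bcl2l12), 0.11 and 0.07 (Tnpo3), and 0.19 and 0.32 (Arl2), none of which passed, and Arl2 never exceeded 25.5 CPM in the 12 mice.

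By likeness of profile, measured as the root mean square difference of centred log2 CPM over the 12 libraries, the genes nearest to Irf5 were Efhd2 (0.0775), Lcp1 and Trpv2, and those nearest to Irf8 were Atg10 (0.101), Vdac2 and Dync1li1. The nearest to Batf2 were Trem1 (0.461), Il18bp and AA467197. Nearest to Batf3 were Trf (0.238), Tmem176b and Arhgap18. The median over all genes was 0.605 for Irf5, 0.628 for Irf8, 2.12 for Batf2 and 0.790 for Batf3.

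Of the IRF genes outside the 8, Irf1 and Irf7, both interferon-inducible, rose in IL10RAKO (log2 fold changes 1.75 and 1.51) and in DKO (1.74 and 1.30), while Irf9 (0.39 and 0.21), which with STAT proteins forms the ISGF3 complex, did not pass. The bZIP and ETS partners moved in both directions: of 12 tested, 2 rose and 3 fell in IL10RAKO, and 2 rose and 4 fell in DKO, with medians of -0.19 and -0.31. Over all genes tested, 8.7% rose and 7.1% fell in IL10RAKO and 9.23% and 9.22% in DKO, with medians of -0.07 and -0.06. Fosl1, a FOS-family subunit of AP-1, rose by 3.36 in IL10RAKO, where it was at 5.26 to 18.7 CPM against 0.0666 to 1.95 in WT. Maf, a factor of resident macrophages, fell by 1.85, and of the JUN partners of BATF proteins Jun and Jund fell by 0.89 and 0.64, while Junb differed by 0.13 (edgeR adjusted p = 0.671). The count of 5 passing in IL10RAKO was 3 in fits with no filter, with at least 10 reads in every library, with only the 2 genotypes, and without WT mouse 3 or IL10RAKO mouse 1 or 4. Spi1, which encodes PU.1, the partner of IRF4 and IRF8, rose by 0.59 in IL10RAKO (adjusted p = 0.0411, edgeR) and was at 0.37 in DKO (adjusted p = 0.187). The Spi1 and Jund calls in IL10RAKO stood in 12 and 13 of 23 alternatives. They were lost, with adjusted p of 0.0517 to 0.122 for Spi1, without WT mouse 2, 3 or 5, IL10RAKO mouse 1 or 4, or DKO mouse 2 or 4, and, with 0.0515 to 0.121 for Jund, without WT mouse 1, 3 or 5, IL10RAKO mouse 1, 2 or 4, or DKO mouse 1 or 3; in DKO the Jund call was lost without DKO mouse 4 (adjusted p = 0.0683).

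Over all genes tested, 8.7% rose in IL10RAKO and 9.23% in DKO, with medians of -0.07 and -0.06. Among genes that signal to IRF3 and IRF5, 7 of 20 rose in each of the comparisons with WT and the other 13 did not pass, with medians of 0.40 and 0.28. On library totals 3 passed in IL10RAKO and 4 in DKO, in the fit of only the 2 genotypes 4 passed in IL10RAKO, and in DKO 4 passed without WT mouse 3 or DKO mouse 3 or 4 and 3 without DKO mouse 2. Tmem173, which encodes STING, rose by 1.21 in IL10RAKO and 1.18 in DKO, Traf6, the ubiquitin ligase below MyD88, by 1.03 and 1.05, and Ikbke, an IRF3 kinase, by 1.01 and 0.94, although in IL10RAKO the Ikbke call was lost on library totals (0.69, adjusted p = 0.0502). Of 24 genes known to lie downstream of the members, 15 rose and 2 fell in IL10RAKO and 15 rose and 3 fell in DKO, with medians of 1.79 and 1.07. By factor, all 5 IRF5 targets (Il12a, Il12b, Il23a, Il6, Tnf) and all 3 BATF2 targets (Nos2, Tnf, Ccl5) rose in both genotypes, as did the IRF2 target Gsdmd (1.14 and 1.01). Tnf is counted under both IRF5 and BATF2, and Il12b under both IRF5 and IRF8, so the counts by factor are not independent. Of 7 IRF8 targets, 3 rose in IL10RAKO and 4 rose and 1 fell in DKO. Of 7 IRF3 targets, 5 rose in IL10RAKO and 4 in DKO, among them Cxcl10 (3.41 and 3.04) and Isg15 (2.88 and 2.43), and Ccl5, listed under both IRF3 and BATF2, rose by 4.84 and 4.43. Of 4 IRF4 targets, all of them genes of alternative activation, Arg1 rose while Retnla fell (266.9 to 398.8 CPM in WT, 0.766 to 14.1 in IL10RAKO) and Mrc1 fell by 2.09 in IL10RAKO and 3.21 in DKO; Chil3 did not pass and was at most 2.71 CPM. In DKO against IL10RAKO, no gene of these lists passed edgeR's quasi-likelihood test or DESeq2, and edgeR's exact test called 1 of 59, Retnla. At an unadjusted p under 0.05 there were 10 of 59, each lower in DKO, against 2.95% of all genes; among them were 5 of the 7 IRF3 targets, Ifnb1, Isg15, Ifit1, Ifit2 and Ifit3, with log2 differences of -3.01, -0.45, -0.98, -0.57 and -0.68, in each of which the mice of the genotypes overlapped. The Ifnb1 value rests on IL10RAKO mouse 3, at 47.4 CPM against 0.557, 6.73 and 4.03 in IL10RAKO mice 1, 2 and 4; without it the log2 difference was -1.04 (unadjusted p = 0.200, edgeR). These genes are named after their values were seen. Background knowledge placed the genes in the lists, which were chosen with earlier results of these data known. Their counts are therefore descriptions only, and binding of the factors was not measured.

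**Figure D5:**
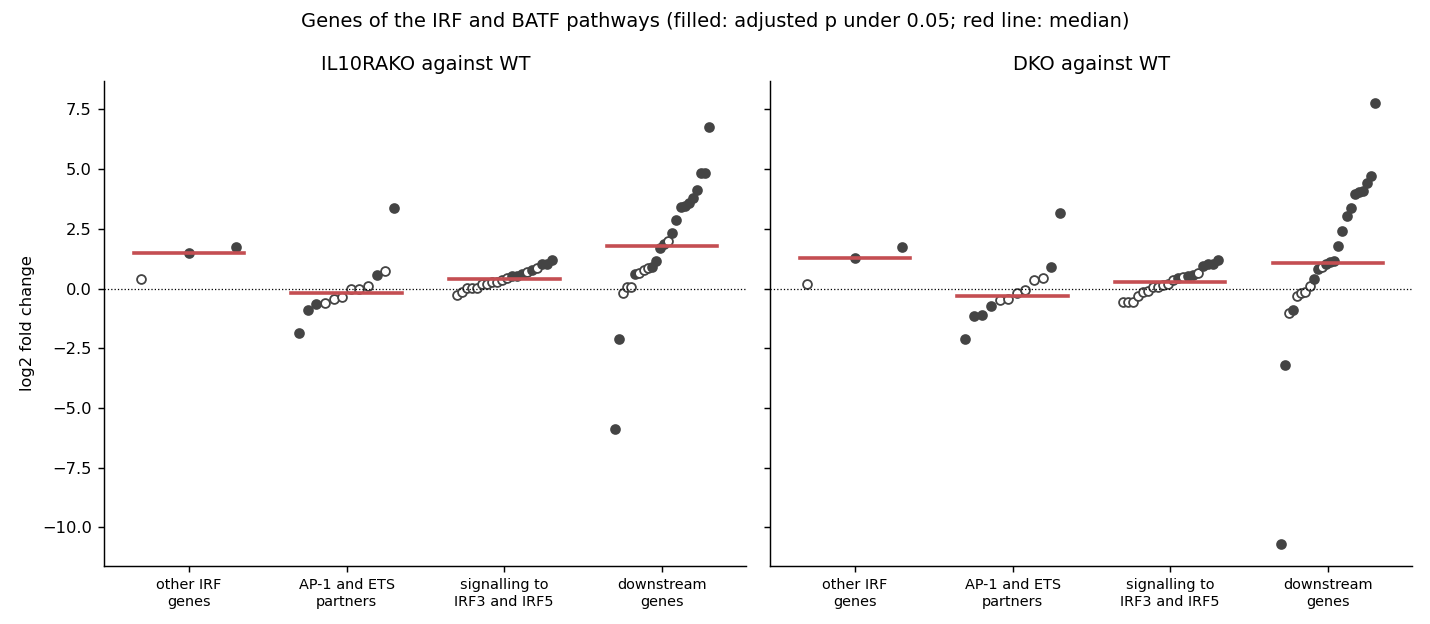
Log2 fold change (y axis) of each tested gene in the 4 gene lists (x axis) in IL10RAKO against WT (left) and DKO against WT (right), with filled points for an adjusted p under 0.05 and a red line at the list median. The medians are 1.51 and 1.30 for the other IRF genes and 1.79 and 1.07 for the downstream genes, above those of the other lists, and the lowest point in each panel is Retnla, which was at or under 0.692 CPM in the DKO mice.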

How the data were processed

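Complementary DNA was made from the RNA of sorted macrophages with SmartSeq v4 reagents, which do not mark the strand, and read as paired ends. The authors aligned reads to mm10 with STAR 2.5.1b (FASTQ files from bcl2fastq 2.20) and deposited raw counts per gene for 14 libraries. They also deposited edgeR (3.34.0, per the labels) pseudocounts, a normalized score per gene, for 13338 genes in 12 libraries. The annotation, the strand setting and the treatment of multiply aligned reads are not given in the sources used here.

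edgeR 4.0.16 under R 4.3.3 was used for the tests. Genes were retained with filterByExpr (minimum count 10), which left 13136, including all 8 members. WT, IL10RAKO and DKO (4 libraries each) were fitted together by glmQLFit after TMM scaling and tested by glmQLFTest, with Benjamini-Hochberg adjustment over all genes. Standard errors were derived from that test, as the absolute log2 fold change divided by the square root of its F statistic. The 95% confidence intervals use these standard errors with a t distribution. The other 2 libraries were scaled through a TMM fit of all 14 and entered no main test. Exact Mann-Whitney tests used log2(CPM + 1). Exon lengths and positions are from GENCODE vM21 (GRCm38) and promoters from RefSeq (GRCm38.p6). The fit was tested on simulated data.

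The members and gene lists were chosen with earlier results of these data known. Named genes are all members, Il10ra and Ccr2, up to 3 genes per list and direction with the smallest p among those passing in IL10RAKO against WT, any list gene passing in DKO against IL10RAKO, the 3 nearest profiles of each member that passed, and cell type markers. Of the genes first listed, 2 are not reported here and were left out of their lists. Genotypes come from the labels, which give no batch, sex or litter; each library is labelled as a separate sample, and p-values measure the spread between these samples. No libraries were duplicates by a chi-square comparison of counts. Alternatives were RLE size factors, library totals, DESeq2 1.42.0, edgeR's exact test, other filters, robust dispersion, the bias-adjusted deviance, only the genotypes compared, all 5 WT libraries, the pseudocounts with limma 3.58.1, other pseudocounts on CPM, and each library left out in turn. All intervals on counts cover counting error and the spread between these mice only. Figures were drawn with Python 3.11.15 and matplotlib 3.10.9.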

Additional observations from a re-analysis of the deposited data

Results flagged for a closer look

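Irf4 in DKO mouse 4, at 5.43 log2(CPM + 1) (42.1 CPM), lay apart from the other 3 DKO mice (6.10 to 6.24), with a gap that was 0.831 of the group's range, just above Dixon's 95% limit for 4 samples. The same mouse had the lowest sums of B and plasma cell markers and of conventional dendritic cell markers in its genotype. In all, 32 groups of samples were examined, of which chance flags about 1 in 20.

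Batf2 in WT mouse 4, a mouse outside the tests, was at 23.7 CPM, above the 2.26 to 14.2 CPM of the other 4 WT mice and below every mouse that lacks Il10ra. Its epithelial cell markers summed to 2412 CPM, against 43.4 to 938.1 in the other WT mice. Among those 4, WT mouse 3 was the highest both in Batf2 (14.2 CPM) and in that sum (938.1). Whether these go together was not tested.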

How the results depend on the processing

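In the comparisons with WT, Batf2 and Irf8 kept their direction and passed in all 23 alternatives, as did Batf3 in DKO. The number of members passing in IL10RAKO against WT was 2, not 4, when only the 2 genotypes were fitted and when all 5 WT libraries were used, because Irf5 and Batf3 were no longer called, and 2 to 4 when 1 mouse was left out. Genes passing in DKO against IL10RAKO were 24 with DESeq2, 22 with edgeR's exact test and 4 (without IL10RAKO mouse 1 or 3) to 10 (without IL10RAKO mouse 2) when 1 mouse was left out, against 6. On library totals, 0 members reached an exact p under 0.05 in DKO against IL10RAKO, where 1 did with TMM; that scaling also turned the sign of the log2 differences of Irf5 (0.0214), Irf1 (0.0531), Tmem173 (0.0420) and Ikbke (0.00106) and of the directed comparisons of Irf5 (0.0342) and Batf2 (0.0285), and it took the share of passing genes that were higher from 55.1% to 23.8% in IL10RAKO and from 50.0% to 25.9% in DKO. The bias-adjusted deviance turned Irf4 to -0.00531. Leaving out 1 mouse gave -0.58 to 0.0216 for Irf4 in IL10RAKO against WT, and in DKO against IL10RAKO -0.25 to 0.36 for Irf4, -0.12 to 0.0724 for Irf5, -0.28 to 0.0848 for Batf2, -0.15 to 0.0808 for Irf1, -0.32 to 0.0378 for Irf7, -0.42 to 0.0740 for Fosl1, -0.20 to 0.0455 for Jund, -0.15 to 0.12 for Tmem173, -0.0666 to 0.14 for Traf6 and -0.14 to 0.0631 for Ikbke; none of these differences passed the test. The cause of the other shifts was not tested. No paired analysis was possible because the labels give no replicate numbers and each genotype holds different mice. The lowest read count of a member in a library tested was 34, and standard errors of the members were 0.151 to 0.456 on the log2 scale; the parts of depth and of the number of mice were not tested.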
